A study of Mus musculus with 6 samples.

Results

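The genes described are 43 axon guidance ligands and receptors, taken by name but with earlier results of these data known. They are 20 semaphorins, 9 plexins, 3 Slits, 4 Robo receptors, 2 netrins, 4 Unc5 receptors and Dcc. All 43 had a probe set assigned to a single gene, out of 19937 genes measured. For Sema4d and Unc5d, which had 2 such probe sets each, the one with the higher mean over the 6 arrays was used. CD1 mouse embryos at E11.5, where E counts days of gestation, gave the cells: their AGM regions, which hold the aorta, gonads and mesonephros, were dissected and digested with collagenase. Per sample, 5 ng of total RNA was amplified for the arrays. The sorted gate was positive for CD31, a surface protein of endothelium, blood and germ cells, and negative for CD45 and Ter119, which mark leukocytes and red cells. It was divided by surface c-kit, the stem cell factor receptor, into c-kit-positive and c-kit-negative cells, with 3 arrays of each. All samples are labelled time T0, and no treatment or genetic change is named. The labels describe the replicates as biological without giving the number of embryos behind each, so the spread behind each p-value is that of these arrays.

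Guidance molecules were first known for steering growing axons and also direct the branching, sprouting and barrier of blood vessels. Semaphorins are secreted or membrane-bound ligands whose main receptors are the plexins; most secreted class 3 semaphorins need a neuropilin co-receptor to engage a plexin, while Sema3e binds Plxnd1 directly. Slits bind Robo receptors, and netrins bind Dcc, neogenin and the Unc5 receptors. In endothelium, Plxnd1, Robo4 and Unc5b are the best studied members of their families.

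Guidance genes were lower in c-kit-positive cells wherever they passed the test: 15 of the 43 fell and none rose (limma, Benjamini-Hochberg adjusted p under 0.05 over all genes). Over all 19937 genes 4.70% were lower and 2.71% higher, or 7.41% in either direction, against 34.9% of the guidance genes lower. The largest falls were those of Sema6d (12.8-fold), Plxnd1 (9.46-fold), Sema6a (7.85-fold), Robo1 (6.48-fold) and Robo4 (3.71-fold). Receptors fell in 8 of 18 cases (median difference -0.63 on the log2 scale) and ligands in 7 of 25 (median -0.30), while the median over all genes was 0.07. Only 2 guidance genes had an unadjusted p under 0.05 on the higher side, Sema4b and Robo3 (4.65%), and 23 on the lower side (53.5%), where all genes had 11.4% and 9.69%. On the same arrays all 15 pan-endothelial markers measured fell and 12 of 15 germ cell markers rose, as detailed with the other markers; their part in these differences was not tested, and in such bulk samples fewer cells of a type and less RNA per cell cannot be told apart.

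The falls differed in size. Of the 15, 13 were at least 2-fold, 4 at least 4-fold and 2 at least 8-fold. The 3 arrays of each population did not overlap for 26 of the 43 genes, lower in 22 (51.2%) and higher in 4 (9.3%). Over all genes the populations did not overlap for 26.8%, with 10.6% lower and 16.2% higher. Among the 28 that did not pass, 18 had a negative and 10 a positive difference, between -0.74 and 0.83. Of all 19937 genes, passing or not, 7760 had a negative and 12177 a positive difference. With 1 array left out, 12 of the 15 calls held in each of the 6 fits; the exceptions were Sema3a, Sema3g and Sema5a, described with their classes.

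**Figure D1:**
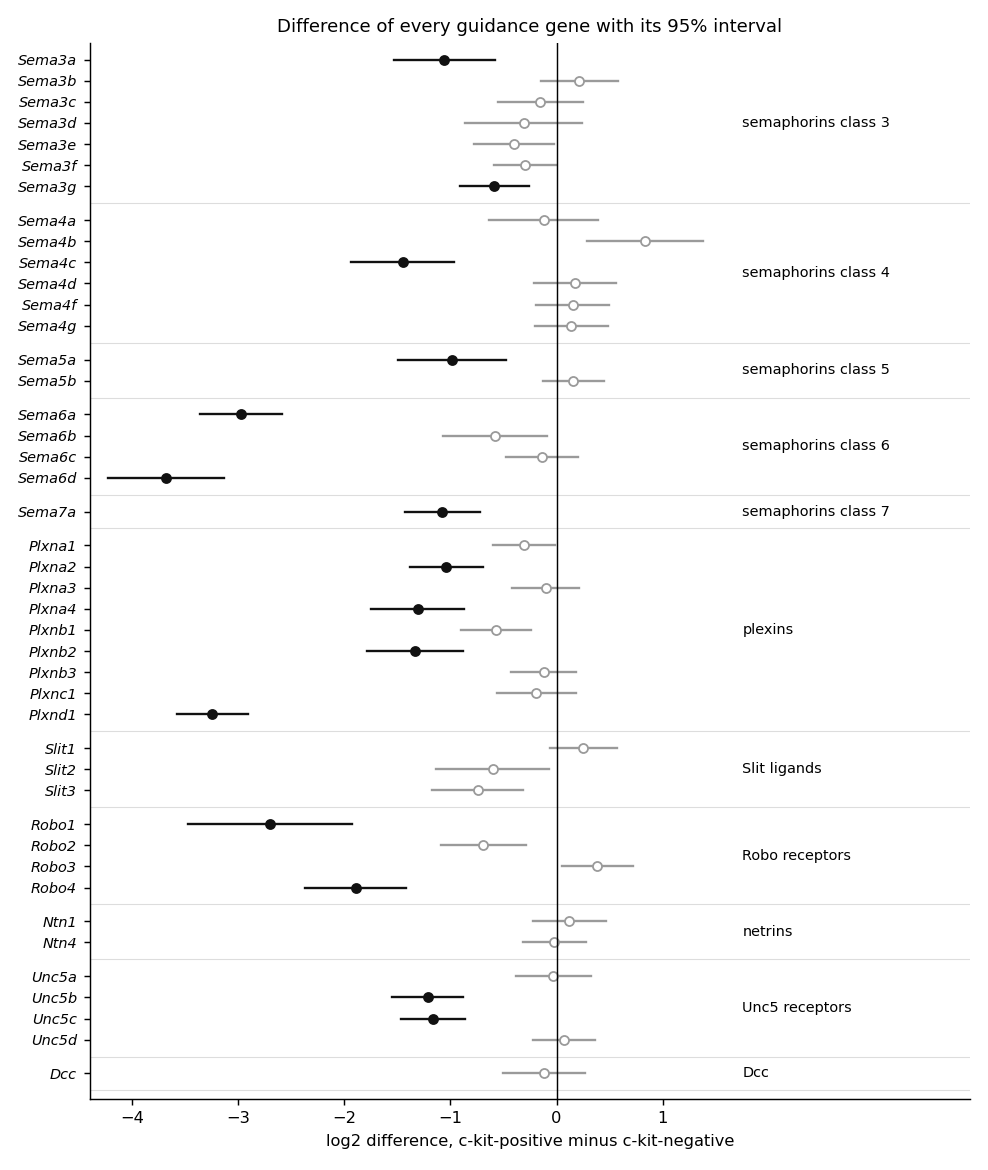
The log2 difference of each of the 43 genes (c-kit-positive minus c-kit-negative, horizontal axis) is drawn with its unadjusted 95% interval from limma, grouped by family; filled black symbols passed the adjusted threshold, open grey ones did not. The 15 filled symbols lie left of 0, from -3.68 for Sema6d to -0.59 for Sema3g, and the open ones lie between -0.74 and 0.83.

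Class 6 semaphorins are transmembrane ligands that engage A-type plexins, and Sema6a and Sema6d are both known in vessels as well as neurons. Sema6d read 9.58, 9.84 and 9.18 (log2) on c-kit-negative arrays 1, 2 and 3 and 5.84, 5.46 and 6.25 on the c-kit-positive ones. The populations lay far apart, and the means of 9.53 ± 0.33 and 5.85 ± 0.39 (SD, n = 3 each) differed by -3.68 ± 0.24 (SE, adjusted p = 7.7e-05, limma). Sema6a read 8.63, 8.46 and 8.30 against 5.47, 5.26 and 5.74, again without overlap, and differed by -2.97 ± 0.17 (SE, adjusted p = 4.1e-05, limma). The other two members did not pass. Sema6b averaged 6.10 ± 0.40 over the c-kit-positive and 6.68 ± 0.20 over the c-kit-negative arrays (SD, n = 3 each, adjusted p = 0.165, limma), and its c-kit-positive array 3, at 6.56, lay within the c-kit-negative range of 6.50 to 6.89. Without that array its adjusted p was 0.0402. Sema6b passed in only this 1 of the 6 fits with an array left out, where its adjusted p reached 0.357 (limma). Sema6c was at 5.44 and 5.58, with a 95% interval of the difference from -0.48 to 0.20.

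The regions before the starts of the genes of largest fall are shown so that the letters can be read beside the values. Shared regulation of these genes was not tested. RefSeq promoter windows (GRCm38.p6) were given for 34 of the 43 genes, 13 of them among the 15 that fell. Of the 5 genes of largest fall, Sema6a had no window. Windows of Plxnd1, Robo1 and Robo4 (1 each) and Sema6d (2 starts) follow, each the 250 bases before the start, 5′ to 3′ along the gene, with matches to any of 4 motifs in capitals:
Sema6d, chr2:124089719-124089968, plus strand: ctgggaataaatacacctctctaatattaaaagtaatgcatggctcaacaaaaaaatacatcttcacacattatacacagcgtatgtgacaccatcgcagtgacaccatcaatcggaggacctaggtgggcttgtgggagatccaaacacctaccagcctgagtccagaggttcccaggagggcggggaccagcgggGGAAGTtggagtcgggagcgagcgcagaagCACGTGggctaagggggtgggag
Sema6d, chr2:124653331-124653580, plus strand: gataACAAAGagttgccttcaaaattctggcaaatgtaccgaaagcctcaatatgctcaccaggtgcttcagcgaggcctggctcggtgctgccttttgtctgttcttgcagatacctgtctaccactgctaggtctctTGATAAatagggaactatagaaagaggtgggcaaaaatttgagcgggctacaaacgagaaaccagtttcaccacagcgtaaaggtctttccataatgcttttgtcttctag
Plxnd1, chr6:115995006-115995255, minus strand: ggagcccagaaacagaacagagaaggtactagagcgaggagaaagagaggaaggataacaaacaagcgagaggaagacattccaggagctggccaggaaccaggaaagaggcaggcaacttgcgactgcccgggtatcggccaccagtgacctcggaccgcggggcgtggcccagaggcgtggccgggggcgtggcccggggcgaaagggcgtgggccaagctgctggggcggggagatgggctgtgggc
Robo1, chr16:72662899-72663148, plus strand: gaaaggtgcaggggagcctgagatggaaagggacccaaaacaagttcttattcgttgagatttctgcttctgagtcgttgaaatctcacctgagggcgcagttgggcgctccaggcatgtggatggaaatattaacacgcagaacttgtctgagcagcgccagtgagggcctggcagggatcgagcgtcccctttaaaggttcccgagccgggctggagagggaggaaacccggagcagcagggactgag
Robo4, chr9:37401722-37401971, plus strand: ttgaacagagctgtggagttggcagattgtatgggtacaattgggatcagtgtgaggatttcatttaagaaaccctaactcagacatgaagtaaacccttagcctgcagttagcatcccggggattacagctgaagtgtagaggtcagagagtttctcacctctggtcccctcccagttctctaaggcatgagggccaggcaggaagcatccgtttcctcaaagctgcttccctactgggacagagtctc

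Letters were searched on both strands. The motif of ETS factors was taken as GGAAGT, that of SOX factors was read as ACAAAG, the one bound by GATA factors was given by the letters TGATAA, and the E-box was searched for with the palindrome CACGTG. The upstream Sema6d window held the ETS letters, with their first base 53 bases before the start, and the E-box 23 bases before it. The second Sema6d window held the SOX and GATA letters, and no match overlapped another. The windows of Plxnd1, Robo1 and Robo4 held none of the 4 motifs, which says only that these letters are not in this window. ETS letters stood in 3 of the 16 windows of genes that fell (18.8%), in 5 of the 31 of the other guidance genes (16.1%) and in 19.7% of all 32851 windows. SOX letters stood in 2 of the 16, 3 of the 31 and 16.5% of all, and the E-box in 1 of the 16, 2 of the 31 and 6.02% of all. GATA letters stood in 3 of the 16, 0 of the 31 and 7.94% of all. A match is a description and not a bound site, and these counts of few windows were not tested.

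Class 3 semaphorins, the secreted class, showed smaller differences. Of 7, Sema3a and Sema3g fell. Sema3a, a repellent of axons and an inhibitor of endothelial migration, read 5.94, 5.68 and 6.45 in c-kit-negative and 5.10, 5.02 and 4.78 in c-kit-positive cells. The populations did not overlap, and the difference was -1.06 ± 0.21 (log2, SE, adjusted p = 0.0190, limma). With c-kit-negative replicate 1 left out its adjusted p was 0.0531, and with c-kit-positive replicate 3 left out 0.0662. Sema3g, a class 3 member expressed by endothelium, read 6.13, 6.23 and 5.97 against 5.39, 5.56 and 5.63, or -0.59 ± 0.14 (SE) as a difference (adjusted p = 0.0430, limma). All 3 c-kit-positive arrays were lower, but the call ended without any 1 of the 6 arrays (adjusted p from 0.0642 to 0.129) and under median centring, quantile normalization, the intensity trend and the replicate block.

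The other 5 members of class 3 did not pass. Sema3e, the ligand of Plxnd1 in the patterning of embryonic vessels, averaged 4.71 ± 0.11 over the c-kit-positive and 5.11 ± 0.26 over the c-kit-negative arrays (SD, n = 3 each, adjusted p = 0.208, limma), with no overlap between populations. Sema3f, which signals mainly through Nrp2, was at 6.24 ± 0.09 and 6.54 ± 0.04 (adjusted p = 0.230, limma), also without overlap. Values for Sema3c, a ligand needed in heart outflow tract development, were 4.65 and 4.80, for Sema3d 4.06 and 4.37, and for Sema3b 5.46 and 5.24. These last 3 overlapped between populations, and the 95% interval of the Sema3d difference ran from -0.86 to 0.24.

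Of the 6 class 4 semaphorins, which are membrane-bound and engage mainly B-type plexins, only Sema4c passed. Sema4c, a ligand of Plxnb2, read 6.68, 6.68 and 6.22 in c-kit-negative and 5.01, 5.45 and 4.77 in c-kit-positive cells. Each c-kit-positive array was lower than each c-kit-negative one, and the gene fell 2.73-fold (difference -1.45 ± 0.21, SE, adjusted p = 0.00469, limma). Sema4b had the largest positive difference among the guidance genes, with 6.66, 6.54 and 7.48 against 5.99, 6.11 and 6.09. All of its c-kit-positive arrays were above the others, but array 3 stood apart from the remaining pair and the adjusted p was 0.0799 (difference 0.83, 95% interval 0.28 to 1.38, limma). Sema4d, the ligand of Plxnb1 and a regulator of lymphocytes, was at 6.76 and 6.59, Sema4g at 6.08 and 5.94, Sema4f at 4.72 and 4.57, and Sema4a at 5.44 and 5.57, in c-kit-positive and c-kit-negative cells in that order. The arrays of these 4 genes overlapped. The second Sema4d probe set differed by 0.42 and the chosen one by 0.17, and neither passed.

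Class 5 semaphorins carry thrombospondin repeats, and class 7 has a single, lipid-anchored member. Sema5a read 5.69, 4.95 and 5.68 in c-kit-negative and 4.54, 4.59 and 4.24 in c-kit-positive cells, which differed by -0.98 ± 0.22 (SE, adjusted p = 0.0326, limma). Its c-kit-negative array 2 was the nearest to the c-kit-positive values, and the call held in 1 of the 6 fits with an array left out, the one without that array; under the replicate block its adjusted p was 0.0510. Sema5b averaged 5.87 ± 0.06 over the c-kit-positive and 5.71 ± 0.06 over the c-kit-negative arrays (SD, n = 3 each, adjusted p = 0.538, limma). Sema7a, which binds Plxnc1 and β-integrins, read 6.74, 6.63 and 6.94 against 5.90, 5.55 and 5.63. The populations were apart, and Sema7a fell 2.11-fold (adjusted p = 0.00429, limma).

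**Figure D2:**
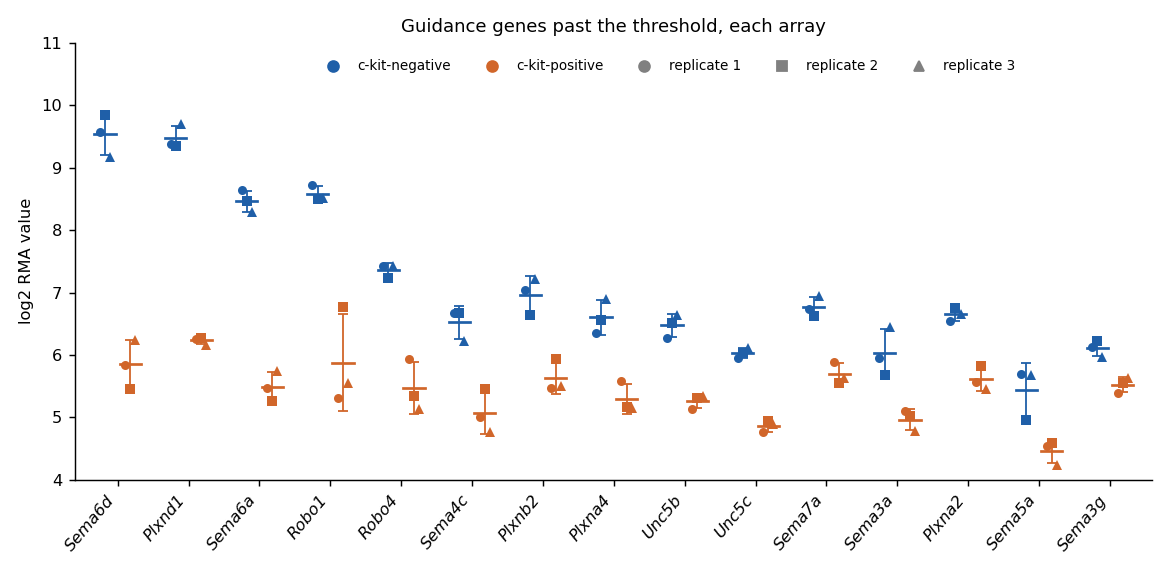
Log2 values of the 15 guidance genes that passed are plotted for each array, ordered by the size of the fall, with bars at the mean and whiskers of 1 SD (n = 3); blue is c-kit-negative, orange c-kit-positive, and symbols mark the replicate number. The orange symbols lie below the blue ones of the same gene in all 15, and the c-kit-positive Robo1 value of replicate 2, 6.77, stands above the other two. Levels of different genes come from different probes and are not comparable.

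Plexins are large transmembrane receptors that alter cell adhesion and the cytoskeleton when a semaphorin binds. All 9 had a negative difference, as had 7760 of all 19937 genes, and 4 of the plexins fell. Plxnd1, the vascular receptor of Sema3e, read 9.38, 9.35 and 9.69 in c-kit-negative and 6.25, 6.28 and 6.17 in c-kit-positive cells. No c-kit-positive array came within 3 log2 units of a c-kit-negative one, and the means of 9.47 ± 0.19 and 6.23 ± 0.06 (SD, n = 3 each) differed by -3.24 ± 0.14 (SE, adjusted p = 1.7e-05, limma). Its promoter window is the third of those printed above.

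Of the 4 A-type plexins, all with a negative difference, 2 passed. Plxna2, a receptor of Sema6a, read 6.54, 6.76 and 6.65 against 5.56, 5.83 and 5.45 in c-kit-positive cells, a fall of 2.06-fold (adjusted p = 0.00443, limma). Plxna4, which serves both class 3 and class 6 semaphorins, read 6.35, 6.56 and 6.90 against 5.58, 5.17 and 5.14, a fall of 2.47-fold (adjusted p = 0.00474, limma). Neither gene had overlapping populations. Plxna1, a receptor of Sema6d and of class 3 semaphorins, did not pass. It averaged 6.86 ± 0.09 over the c-kit-positive and 7.16 ± 0.06 over the c-kit-negative arrays (SD, n = 3 each, adjusted p = 0.219, limma), without overlap. Plxna3 did not pass either, at 5.89 and 5.99 with overlap.

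Among the B-type plexins, Plxnb2, a receptor of Sema4c, read 7.04, 6.64 and 7.22 against 5.47, 5.93 and 5.51 in c-kit-positive cells. It fell 2.52-fold without overlap between populations (adjusted p = 0.00507, limma). Plxnb1 lay next to the threshold, at 5.84 ± 0.13 and 6.41 ± 0.15 (SD, n = 3 each, difference -0.57, adjusted p = 0.0514, limma). Without the dimmest 30 percent of genes its adjusted p was 0.0462. With the replicate block it was 0.106, and with 1 array left out 0.0743 to 0.164 (limma). Plxnb3, known as a receptor of Sema5a, was at 5.15 and 5.27, and Plxnc1, the receptor of Sema7a, at 6.50 and 6.69. Both overlapped between populations, and the Plxnc1 difference had a 95% interval from -0.57 to 0.18.

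Robo receptors carry immunoglobulin and fibronectin repeats, and Robo4 is the form of endothelium. Of the 4, Robo1 and Robo4 fell. Robo1 read 8.73, 8.49 and 8.51 in c-kit-negative and 5.31, 6.77 and 5.56 in c-kit-positive cells. The c-kit-positive arrays differed among themselves more than for any other of the 15 genes that fell (SD 0.78), with replicate 2 the highest, yet all 3 lay below every c-kit-negative array. The difference was -2.70 ± 0.34 (SE, adjusted p = 0.00225, limma) and -3.14 without c-kit-positive replicate 2. Robo4 read 7.42, 7.24 and 7.43 against 5.93, 5.34 and 5.14, again apart, and differed by -1.89 ± 0.21 (SE, adjusted p = 0.00122, limma). Here c-kit-positive replicate 1 was the highest of its group, so the array nearest to the c-kit-negative values was not the same for both receptors.

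Robo2 averaged 5.47 ± 0.09 over the c-kit-positive and 6.16 ± 0.31 over the c-kit-negative arrays (SD, n = 3 each, difference -0.69, adjusted p = 0.0526, limma), without overlap. Its adjusted p was 0.0200 without c-kit-negative replicate 2 and 0.0461 without the dimmest 30 percent of genes. It passed in 1 of the 6 fits with an array left out, where its adjusted p reached 0.165 (limma). Robo3, which acts in axons that cross the midline, had the opposite sign, at 5.27 ± 0.15 and 4.88 ± 0.15 (SD, n = 3 each, difference 0.39, adjusted p = 0.173, limma), also without overlap. Of the 3 Slits, the secreted ligands, none passed; 2 had an unadjusted p under 0.05, both on the lower side. Slit3 had the smallest p, reading 6.55, 6.21 and 6.23 in c-kit-negative and 5.52, 5.92 and 5.33 in c-kit-positive cells. The populations did not overlap, and the difference of -0.74 ± 0.19 (SE) had an adjusted p of 0.0509 (limma). This became 0.0296 without c-kit-positive replicate 2 and 0.0444 without the dimmest 30 percent of genes. Slit3 passed in 1 of the 6 fits with an array left out, where its adjusted p reached 0.160 (limma). Slit2 read 6.11, 6.40 and 5.48 in c-kit-positive cells against a mean of 6.60 ± 0.16 (SD, n = 3) in the others (adjusted p = 0.178, limma) and Slit1 at 5.09 and 4.83.

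Netrins are secreted, laminin-related cues, and their receptors differ in outcome: Dcc mostly attracts and the Unc5 receptors mostly repel. Of the 4 Unc5 receptors 2 fell. Unc5b, the member of vascular endothelium and a partner of Robo4, read 6.28, 6.52 and 6.63 in c-kit-negative and 5.14, 5.31 and 5.34 in c-kit-positive cells. Unc5c read 5.96, 6.03 and 6.12 against 4.76, 4.95 and 4.90. For both, the populations lay apart by several times their spread, and the falls were 2.32-fold and 2.24-fold (adjusted p = 0.00193 and 0.00136, limma).

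The remaining genes of the netrin system stayed within narrow bounds. Unc5a averaged 5.00 ± 0.22 over the c-kit-positive and 5.03 ± 0.09 over the c-kit-negative arrays, and Unc5d at 5.47 ± 0.10 and 5.40 ± 0.03 (SD, n = 3 each); the 95% intervals of the differences were -0.38 to 0.32 and -0.22 to 0.36. The second Unc5d probe set differed by -0.05. Ntn1, the ligand of Dcc and of the Unc5 receptors, read 5.77, 5.45 and 5.75 in c-kit-negative and 5.89, 5.80 and 5.64 in c-kit-positive cells (95% interval of the difference -0.22 to 0.46). Ntn4, a netrin of basement membranes, was at 5.30 and 5.33 (interval -0.32 to 0.28). Dcc read 4.67, 4.58 and 4.97 against 4.53, 4.85 and 4.47 (interval -0.50 to 0.26). The populations overlapped for all 5 of these genes, and a difference of 2-fold lay outside each interval. Whether such genes were above background is not shown by the table.

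Set side by side, ligand and receptor did not always both pass the threshold. Sema6a and its receptors Plxna2 and Plxna4 all fell, as did Sema4c and Plxnb2. For Plxnd1, Robo1, Robo4, Unc5b and Unc5c the receptor fell while the ligands Sema3e, Slit1, Slit2, Slit3, Ntn1 and Ntn4 did not pass. Of these ligands, Sema3e, Slit2 and Slit3 lay lower and Slit1 higher without overlap of the populations, while Ntn1 and Ntn4 overlapped. Flrt2, a membrane ligand of Unc5 receptors outside the 43 genes, fell 15.4-fold. In other pairs the ligand fell while a plexin that binds it did not pass: Sema6d and Plxna1, Sema7a and Plxnc1, and Sema5a and Plxnb3. Of these plexins, Plxna1 lay lower without overlap, while Plxnc1 and Plxnb3 overlapped. Sema6d had the largest fall of the 43. Among other receptors, Plxna4, which serves class 6 semaphorins, fell 2.47-fold. The integrin subunits Itgb1 (2.16-fold) and Itga1 (3.44-fold), which can serve as Sema7a receptors, fell too. Whether the change of a ligand differed from that of its receptor was not tested.

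**Figure D3:**
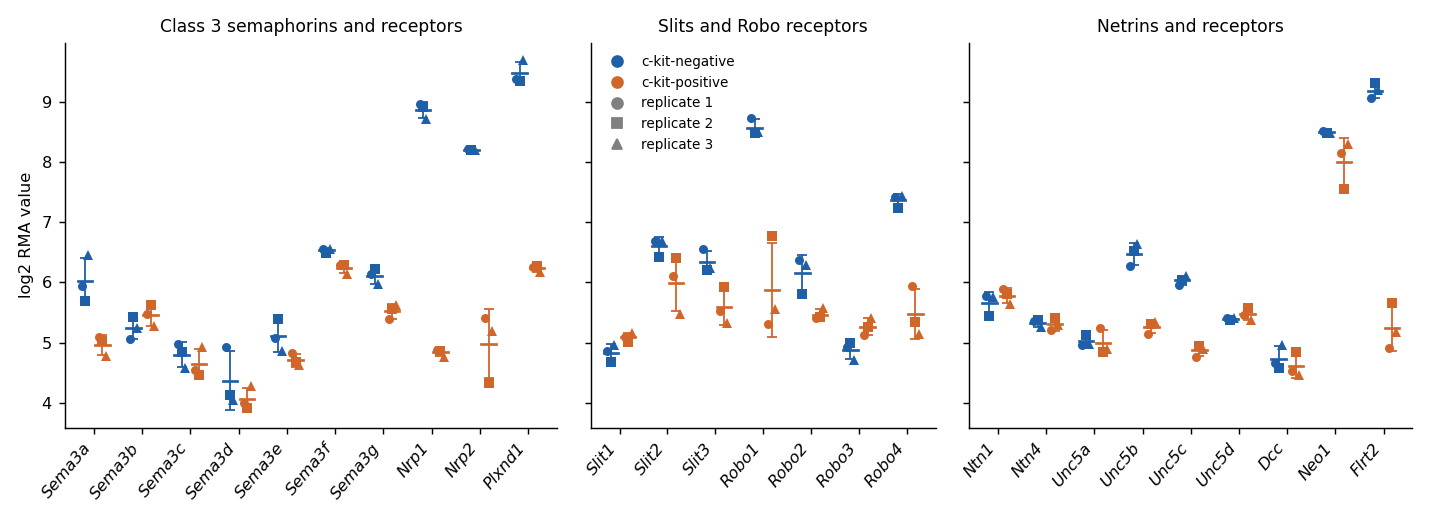
Log2 values on each array are drawn for 3 systems: class 3 semaphorins with Nrp1, Nrp2 and Plxnd1, Slits with Robo receptors, and netrins with their receptors and the Unc5 ligand Flrt2; bars are means, whiskers 1 SD (n = 3), blue c-kit-negative and orange c-kit-positive. Nrp1, Nrp2, Plxnd1, Robo1, Robo4, Unc5b, Unc5c and Flrt2 show wide gaps between colours, while those of Slit1, Ntn1, Ntn4, Unc5d and Dcc are small; levels of different genes are not comparable.

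Other receptors and ligands of the pathways were followed with a list of 35 genes, of which 33 were measured: 6 fell and 1 rose (median difference -0.04). Over all genes 4.70% were lower and 2.71% higher, with a median of 0.07. The neuropilins, co-receptors of class 3 semaphorins and of VEGF, were among the falls. Nrp1 read 8.97, 8.91 and 8.72 in c-kit-negative and 4.88, 4.86 and 4.77 in c-kit-positive cells, and differed by -4.03 ± 0.13 (SE, adjusted p = 4.8e-06, limma). Nrp2 read 8.21, 8.21 and 8.21 against 5.41, 4.33 and 5.20, and differed by -3.23 ± 0.26 (SE, adjusted p = 0.000214, limma). Both neuropilins thus lay lower on every c-kit-positive array, like Plxnd1, with which they form receptors. Flrt2, a membrane ligand of Unc5 receptors, fell 15.4-fold, from 9.19 ± 0.12 to 5.25 ± 0.38 (SD, n = 3 each). The integrin subunits Itgb1 (2.16-fold lower) and Itga1 (3.44-fold lower), which can serve as Sema7a receptors, and Erbb2 (2.15-fold lower), a partner of B-type plexins, also fell. Neo1, the neogenin receptor of netrins, was at 8.01 ± 0.40 and 8.49 ± 0.03 (SD, n = 3 each, adjusted p = 0.208, limma). The gene that rose, named after its value was seen, was the surface peptidase Dpp4 (2.44-fold, adjusted p = 0.0201, limma), which lost its call when c-kit-negative replicate 1 or 2 or c-kit-positive replicate 2 or 3 was left out (adjusted p 0.0525 to 0.0599).

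Intracellular effectors of these receptors, a list of 53 with 50 measured, gave 13 falls and 0 rises (median difference -0.30). Over all genes 4.70% were lower and 2.71% higher (median 0.07), so few rises would be looked for in a list of this length. At an unadjusted p under 0.05 there were 22 on the lower side and 1 on the higher side, Mical3 (named after its value was seen). For all genes those shares were 9.69% and 11.4%. The falls of smallest p were those of Srgap1, a GTPase-activating protein that binds Robo (2.90-fold lower, adjusted p = 0.000883, limma), and of the collapsin response mediators Crmp1 (2.64-fold), Dpysl3 (2.59-fold) and Dpysl2 (2.15-fold), which relay Sema3a signals to microtubules. The exchange factors Trio (2.46-fold) and Arhgef12 (1.93-fold), the latter a partner of B-type plexins, came next. Each of these 6 was lower on all 3 c-kit-positive arrays than on any c-kit-negative one.

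Markers of the cell types that the gate could hold moved on the same arrays, where 4.70% of all genes were lower and 2.71% higher. All 15 pan-endothelial markers fell, by -1.16 to -4.87 (median -2.31), and their mean log2 level ran from 5.85 to 6.22 on c-kit-positive and from 8.67 to 8.76 on c-kit-negative arrays; Cdh5, which encodes VE-cadherin, was at 6.48 ± 0.56 and 11.17 ± 0.16 (SD, n = 3 each). Of the guidance genes, 10 fell by at least as much as the least changed of these markers. The mesenchyme and smooth muscle list had 7 falls among 14 genes (mean level 5.23 to 5.30 against 6.24 to 6.41), with Pdgfra at 5.13 and 7.27. Of 11 neural and neural crest markers 2 fell, Nefm (4.79-fold) and Stmn2 (3.10-fold), with a mean level of 5.10 to 5.21 against 5.39 to 5.80, while Sox10 was at 6.07 and 5.95. Of 15 germ cell markers 12 rose (mean level 7.92 to 8.19 against 6.76 to 6.88), among them Dazl at 9.55 and 7.70. The table cannot show any of these markers to be absent, since it carries no detection calls.

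Blood and epithelial markers also varied. Of 13 leukocyte and macrophage markers 3 fell (mean level 6.77 to 7.07 against 7.29 to 8.20), namely Ctss (4.14-fold), Csf1r (3.91-fold) and Tyrobp (1.61-fold), while Ptprc, which encodes CD45, was at 8.52 and 8.75 and did not pass. Of 7 megakaryocyte and platelet markers 2 fell (5.97 to 6.50 against 6.74 to 7.85), with the platelet chemokines Pf4 (10.4-fold lower) and Ppbp (8.54-fold lower) the genes that fell and Gp9 at 6.07 and 6.33. Of 9 erythroid markers 3 fell and 1 rose (5.75 to 6.11 against 6.50 to 7.13): the embryonic globins Hbb-y (15.7-fold), Hba-x (14.2-fold) and Hbb-bh1 (5.49-fold) were lower and Ermap was higher (1.92-fold). The falls of Pf4, Hbb-y and Hba-x were thus of the size of those of Sema6d and Plxnd1, and their relation to the guidance genes was not tested. Of 12 mesonephric and gonadal markers Osr1 fell (2.52-fold; mean level of the list 5.61 to 5.75 against 5.57 to 5.76). Sema4d, Sema4a and Plxnc1, which leukocytes also carry, did not pass. They are examples and not a set list of the guidance genes of leukocytes, and Sema7a, the ligand of Plxnc1, fell. Of the 13 leukocyte and macrophage markers, 12 had a negative difference (median -0.64), as had 7760 of all 19937 genes (median 0.07). The relation of these markers to the guidance genes was not tested.

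**Figure D4:**
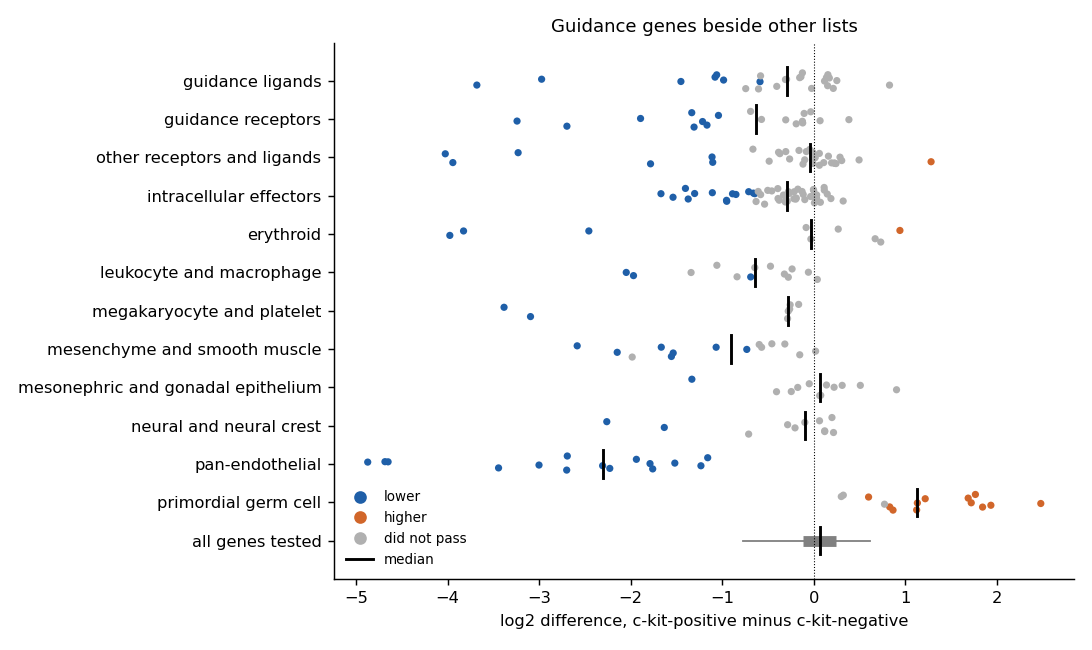
Log2 differences (c-kit-positive minus c-kit-negative) are shown for each gene of the guidance ligands and receptors, of the other pathway lists and of the marker lists, coloured by the result of the test, with a bar at the median; for all genes the thick band spans the quartiles and the thin line the 5th to 95th percentile. The guidance receptors (median -0.63) and ligands (median -0.30) spread to the left, and the median over all genes was 0.07. Medians of the pan-endothelial (-2.31), mesenchyme (-0.90), leukocyte (-0.64) and platelet (-0.28) markers also lay to the left, with neural (-0.10) and erythroid (-0.03) ones nearer 0. That of the germ cell markers (1.13) lay above 0, and that of the mesonephric and gonadal markers (0.07) was close to the median over all genes.

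The sort labels were checked on Kit, at 9.55 ± 0.03 and 8.22 ± 0.04, and on Pecam1, which encodes CD31, at 9.13 ± 0.16 and 10.02 ± 0.02 (SD, n = 3 each). Array medians ran from 5.42 to 5.52, and the correlation of arrays across genes, a description since genes are not independent, was 0.976 to 0.981 within a population and 0.946 to 0.953 between them. With 3 arrays against 3, an exact permutation test of 1 gene cannot go below 0.1, so single genes rest on the fit across all genes.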

How the data were processed

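Total RNA of 6 sorted samples (3 c-kit-positive, 3 c-kit-negative) was measured on 1 array each. The deposited values are log2 intensities that the authors made with RMA, per the submitters' processing notes; its version, its settings and a genome build are not given in the sources. RMA corrects background and gives arrays a common distribution, which can compress fold changes of dim genes, and the RNA had been amplified from 5 ng.

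The table held 34760 probe sets: 21640 had 1 gene symbol in the platform annotation, 1321 several, and 11799 are not listed there and stayed unnamed. Of the first, 21553 matched RefSeq (GRCm38.p6) by Entrez identifier and 0 symbols changed. For the 954 genes with several probe sets the one with the highest mean was kept. The 19937 genes were fitted with limma 3.58.1 in R 4.3.3 (lmFit, eBayes, no filter, no block), two-sided; p-values were adjusted by Benjamini-Hochberg over the 19937 genes and called under 0.05. The test was checked on simulated data. Figures used matplotlib 3.10.9.

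The members and lists were chosen with earlier results of these data known. Values per array are given for each guidance gene that passed and for the one of smallest p in families with none; other guidance genes are given as values; from the other pathway lists, at most 6 genes of smallest p each, plus Nrp1, Nrp2 and Neo1. Outside this rule, and after values were seen, the arrays of Sema4b, Sema6b and Slit2, the genes Dpp4 and Mical3, and the neural, blood and mesonephric markers that passed were also given. Alternatives were median centring, quantile normalization, filters on the dimmest 30 and 50 percent of genes, other uses of probe sets, a prior with trend and robust fitting, weights per array, a block for the replicate number, stricter thresholds, no variance moderation, and leaving out each array. Same-numbered arrays did not deviate together (correlations of deviations 0.00071, 0.024 and 0.059), so the numbers were not taken as pairs. Protein sequences and the list genes without a probe set of 1 gene (Ntng2, Adora2b, Rhod, Pak1, Ptk2 and 8 markers) were not analysed here.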

Additional observations from a re-analysis of the deposited data

How the results depend on the processing

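The 15 guidance genes that passed kept a negative difference under all 18 alternatives in which they were fitted, but this sign could hardly change. Filters, probe set rules, variance settings, the replicate block and stricter thresholds left their differences as they were. Their populations did not overlap, so leaving out or weighting arrays could not reverse the sign. Only the rescalings could have, so the kept sign is no measure of robustness. Their count was 13 to 18 under the scalings, filters, probe set rules, variance and weight settings and the replicate block, 12 at an adjusted p under 0.01, and 12 to 15 with 1 array left out. Without variance moderation 5 passed (Sema6a, Sema6d, Plxnd1, Unc5b and Unc5c), fewer because the spread of each gene then rests on its own arrays. No guidance gene passed on the higher side under any alternative. The filter on the dimmest 50 percent of genes removed 18 guidance genes, 3 of them among the 15 (Sema3a, Sema5a and Unc5c), and Plxnb1, Robo2 and Slit3 passed under it. With the replicate block, 13 guidance genes were lower, 2 fewer (Sema3g and Sema5a), with 476 genes higher and 879 lower in all; c-kit-positive arrays 2 and 3 correlated best with their own number and array 1 with c-kit-negative array 2, all weakly. Over all genes, 540 higher and 937 lower became 131 and 499 at 0.01, 215 and 615 with a 2-fold minimum, and 66 and 216 without moderation, and the higher genes numbered 276 to 369 with 1 array left out. Of the other pathway genes, 19 lower became 12 with the 2-fold minimum and 5 without moderation, and the 1 higher became 0 at 0.01, without moderation and without the dimmest 50 percent, and 0 to 1 with 1 array left out. The cause of the other changes was not tested. The number of arrays and the lack of detection calls limit what dim genes can show.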
